A study of Homo sapiens with 9 samples.

Results

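Binding of the splicing factor SF3B1 was examined in 8 genes of the red cell programme: the embryonic and fetal beta-like globins HBE1, HBG1 and HBG2, the alpha-like globins HBA1, HBA2 and HBZ, and the membrane skeleton genes ANK1 and EPB41. A site belonged to a gene when its centre lay inside the RefSeq span of that gene, on its strand, in the coordinates of GRCh38. The 8 genes, among 20037 protein-coding genes, held 165 of the 96852 sites in the list, or 0.170%. EPB41 held 94, ANK1 held 68 and HBA1 held 3, while HBE1, HBG1, HBG2, HBA2 and HBZ held 0.

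The data came from iCLIP, in which ultraviolet light joins a protein to the RNA it touches and sequencing of the immunoprecipitated RNA marks the crosslinked bases. K562 cells were irradiated at 400 mJ/cm2 and 254 nm. The list used here is attached by the labels to 3 libraries of SF3B1 from K562 cells with genotype SF3B1 wt/wt (Horizon Discovery), whereas its header states reproducibility in all replicates of either condition. The series also has 2 libraries of SF3B1 from SF3B1 K700E/wt cells and 4 libraries of U2AF2 from SF3B1 wt/wt cells of another provider (ATCC), which were not analysed here. Each site is 5 nt wide and has no read number, so the libraries' depth and the replicate error are unknown. No test between conditions was possible, and all values below are counts in 1 merged list.

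SF3B1 is a subunit of the U2 small nuclear ribonucleoprotein, which recognises the branch point ahead of the 3′ splice site during splicing. Globin genes are short genes that code for the oxygen-binding chains of haemoglobin, and they lie in an alpha and a beta cluster in the order in which they are used in development. Ankyrin, from ANK1, ties the spectrin network to the anion exchanger of the red cell membrane, and the protein from EPB41 strengthens the junctions of spectrin with actin. EPB41 is known for alternative splicing that changes as red cells mature, and both ANK1 and EPB41 are known for alternative first exons.

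The labels describe the cells as derived from chronic lymphoid leukaemia, whereas K562 is known as a chronic myeloid leukaemia line with erythroid features that makes embryonic and fetal globins. Among 7 erythroid and megakaryocytic marker genes, 6 held a site and KLF1 held 0. TFRC, the transferrin receptor gene, held 121 of the 183 sites in these genes. TAL1 held 17, ALAS2 16, NFE2 14, LMO2 9 and GATA1 6. Of 35 other red cell membrane genes counted below, 24 held a site and 11, including SLC4A1, EPB42, GYPC, RHD and RHCE, held 0. These 35 were not limited to genes particular to red cells. Among 7 lymphoid marker genes, among them PAX5 and CD3E, 0 held a site. Over the 15843 protein-coding genes whose strand is given by the RefSeq promoter table used here, 40.3% held at least 1. With 7 genes in each marker list, these counts describe the list of sites and do not settle the origin of the cells.

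EPB41 is the only one of the 8 genes with an entry in the RefSeq promoter table used here. Its entry has 2 starts, and both are shown because the sites of EPB41 fall on both sides of the second one. Each line gives the 250 bases before a start, GRCh38.p14, plus strand, from 5′ to 3′, at chr1:28886850-28887099 and chr1:28914319-28914568. Capitals mark matches on either strand to the letters CCAAT (the CCAAT box) and GGGCGG (the GC box); matches can overlap, and TATAAA (the TATA box) and the motif of the GATA factors, with the letters AGATAA, were also searched on both strands and had 0 matches in each window.
EPB41 start 1: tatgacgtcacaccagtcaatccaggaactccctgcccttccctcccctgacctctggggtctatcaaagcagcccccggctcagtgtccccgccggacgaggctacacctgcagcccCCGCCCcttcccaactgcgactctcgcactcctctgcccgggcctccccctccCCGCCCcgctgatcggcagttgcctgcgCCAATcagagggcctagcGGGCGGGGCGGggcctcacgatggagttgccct
EPB41 start 2: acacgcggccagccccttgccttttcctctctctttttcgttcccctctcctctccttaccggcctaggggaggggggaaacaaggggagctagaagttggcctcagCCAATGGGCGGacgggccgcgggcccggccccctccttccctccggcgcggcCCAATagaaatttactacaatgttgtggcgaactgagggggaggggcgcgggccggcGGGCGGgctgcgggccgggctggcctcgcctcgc
The window before start 1 had 1 CCAAT and 4 GC box matches, and the window before start 2 had 2 and 2. Of 35116 windows of this length in the table, 32.0% held CCAAT, 42.6% GGGCGG, 10.7% TATAAA and 9.17% AGATAA. Both windows of EPB41 had a G and C content of 68.4%, against a median of 58.0% over all windows. These matches describe letters only.

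Of the 6 globins described here 1 held a site, and of the 8 genes with ANK1 and EPB41 included 3 did, against 40.3% of the 15843 protein-coding genes whose strand the promoter table gives. Short genes were rarely listed. Among 923 protein-coding genes with spans up to 2000 nt, 5.53% held at least 1 site, and 24 of them held at least 3. All 6 globins are in this length range, from 835 nt in HBA2 to 1860 nt in HBZ.

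HBA1 encodes the adult alpha chain and occupies chr16:176680-177522, plus strand, in RefSeq. Its 3 sites were at chr16:177207-177211, chr16:177220-177224 and chr16:177470-177474. The first lay 529 nt after the gene start, at 62.8% of the span, and the second 13 nt further on. The third lay 250 nt beyond the second and 50 nt before the gene end. HBA1 thus had a close pair and a single site in its later part, and 0 sites in its first 500 nt. Exons were not given in the gene table, so the position of these sites relative to the introns was not determined. At 3.56 sites per kb of span, HBA1 had the highest number per kb of the 8 genes, although this rests on 3 sites.

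HBA2, on the same strand at chr16:172876-173710, held 0 sites. HBA1 and HBA2 are near-identical copies that encode the same protein and are known to differ mainly in the second intron and the 3′ end of the transcript. HBG1, at chr11:5248269-5249857, and HBG2, at chr11:5253188-5254781, both minus strand, are likewise near-identical copies of the fetal gamma chain gene and held 0 sites. A read that fits more than one copy can be lost in alignment, so a count of 0 in HBA2, HBG1 or HBG2 does not show that SF3B1 was absent there, and the 3 sites of HBA1 count only what could be placed. HBZ, the embryonic alpha-like gene at chr16:152644-154503, has the related pseudogene HBZP1 in the same cluster, and both held 0 sites. HBE1, the embryonic beta-like gene at chr11:5268345-5269945, minus strand, also held 0 sites.

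Of 8 other globin genes and pseudogenes, 1 held a site, or 12.5%, against the 5.53% of protein-coding genes up to 2000 nt. The sets are unlike, since the 8 include BGLT3, a long non-coding RNA gene, and the pseudogenes HBBP1, HBZP1 and HBAP1. HBZP1 spans 2.14 kb, only 2 of the 8 had a listed strand, and 1 site is too few to compare shares. HBD, the minor adult beta-like gene, held 1 site, at chr11:5234270-5234274 on the minus strand, 211 nt after the gene start. HBB, HBM, HBQ1, BGLT3, HBBP1, HBZP1 and HBAP1 held 0. From HBE1 to HBB, a stretch of 44.5 kb, the list had this 1 site on either strand. From HBZ to HBQ1, a stretch of 28.5 kb, it had the 3 sites of HBA1. Of the genes on both sides of the alpha cluster, NPRL3 held 5 sites in 53.3 kb and LUC7L held 31 in 40.5 kb. They are named as the neighbours of the cluster, after their values were seen.

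**Figure D1:**
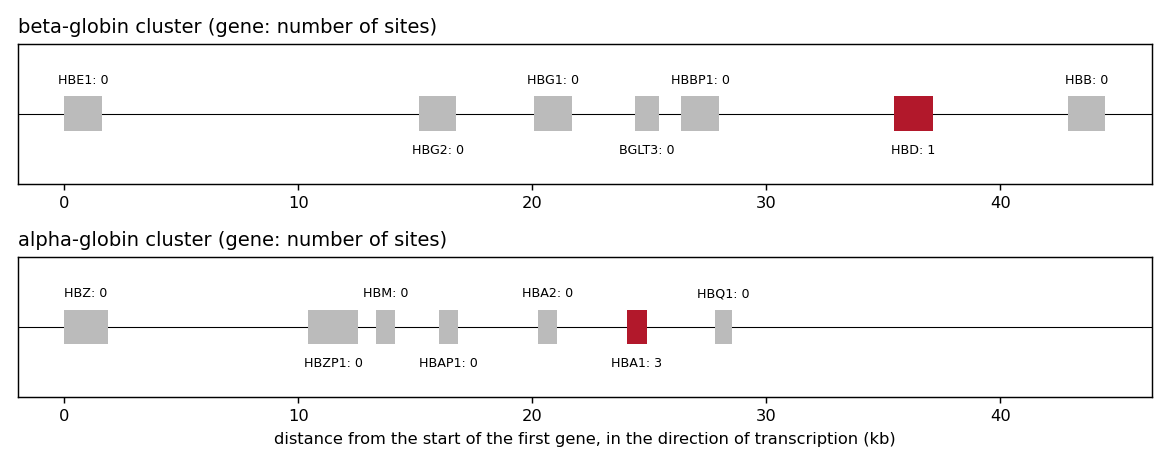
Position and number of SF3B1 sites in the globin clusters. The horizontal axis is the distance in kb from the start of the first gene of each cluster, in the direction of transcription. Boxes are RefSeq gene spans, red where the gene holds a site and grey where it holds 0, and each label gives the number of sites. HBA1 has 3 sites, HBD has 1 and the other genes drawn have 0.

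EPB41 was among the genes with the most sites. It spans 233 kb, at chr1:28887100-29120041 on the plus strand, and 70 RefSeq transcripts are listed for it. Its 94 sites placed it at rank 45 of all protein-coding genes. Among 1325 other genes with spans within 1.5 times that of EPB41, 42.0% held at least 1 site, the median among those with a site was 9, and 8 genes held as many sites as EPB41 or more. The nearest in number above it were BIRC6, for a large inhibitor of apoptosis, with 127 and MDN1, for a ribosome assembly factor, with 108. Below it came ACACA, for acetyl-CoA carboxylase, with 93 and ANKRD17 with 92.

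ANK1 spans 244 kb, at chr8:41653225-41896741 on the minus strand, with 8 RefSeq transcripts listed. Its 68 sites placed it at rank 125. Among 1260 other genes of like span, 40.7% held at least 1 site, the median among those with a site was again 9, and 22 held as many as ANK1 or more. The genes beside it in this order were NF1, for the RAS regulator neurofibromin, with 69 and VPS13C, for a lipid transfer protein, with 68. Below it came FRYL and KDM6A, for a histone demethylase, with 67 each. All sites of EPB41 and of ANK1 lay on the strand of the gene, and the 8 genes had 0 sites on the other strand.

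**Figure D2:**
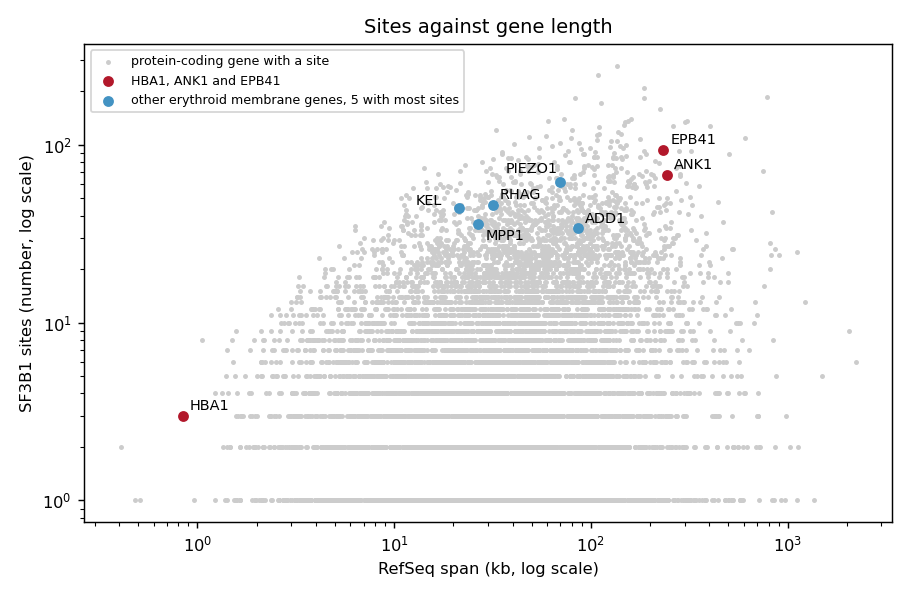
Number of SF3B1 sites against RefSeq span in kb, both on log scales, for protein-coding genes with a site (grey points). Red points are HBA1, ANK1 and EPB41, and blue points are the 5 other erythroid membrane genes with the most sites. EPB41 (94) and ANK1 (68) lie near the top of genes of their length, and HBA1 (3) is among the shortest genes with a site.

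The sites of EPB41 were unevenly placed. The first lay 827 nt after start 1, and 6 more lay between 6.44 and 6.93 kb, at chr1:28893542-28894028. No further site followed for 99256 nt, which is 42.6% of the span, and start 2, at 27.5 kb, lies inside this gap. The 7 sites before start 2 therefore lie between the 2 starts whose upstream sequences are given above, and the nearest site after start 2 was 78713 nt away. Of 222 other genes with at least 50 sites and a strand in the promoter table, 2 had a gap of at least that share, JMJD1C and GABRE, both named after their values were seen. The median longest gap of the 223 such genes was 15.1% of the span.

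The remaining 87 sites of EPB41 lay between 106.2 and 230.8 kb, at 0.698 sites per kb. Sites linked at 1000 nt or less formed 19 groups, of which 3 held 12 sites each. The first of these ran over 555 nt, at chr1:29058351-29058909, and the second over 479 nt, at chr1:29064728-29065210. The third extended over 2210 nt near the end of the gene, at chr1:29115641-29117854. The second fits within 500 nt, and 25 of 222 other genes with at least 50 sites had a window of 500 nt with 12 sites or more, against a median of 8. Between 178.1 and 210.2 kb EPB41 had 0 sites.

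ANK1 had 0 sites in the first 162631 nt of its span, or 66.8%. All 68 sites lay in the 78.7 kb that followed, at 0.864 sites per kb. Per kb of whole span EPB41 was higher, with 0.404 against 0.279. Over the occupied stretches this order was turned, but the bounds of these stretches were drawn from the sites themselves. For EPB41 the stretch starts after the longest gap, and for ANK1 it starts at the first site. The RefSeq span runs from the outermost start, and which starts K562 cells use was not measured here. Of 223 other genes with at least 50 sites, 3 had a first site as late as ANK1 in relative terms. They were USP34, GSE1 and THOC2, named after their values were seen. Of the 223 genes, 10, or 4.48%, had no site before the midpoint of the span.

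Within its occupied stretch ANK1 had 20 groups of sites linked at 1000 nt or less. The largest held 16 sites over 2814 nt, at chr8:41704478-41707295, and was the only one of ANK1 with at least 10. The last group held 7 sites over 477 nt, at chr8:41655364-41655844, and its final site lay 2141 nt before the end of the gene. The microRNA gene MIR486-1, known as a red cell microRNA, lies inside ANK1 at chr8:41660441-41660508 and held 0 sites. MIR486-2, at chr8:41660444-41660507, covers nearly the same bases and also held 0. At 0.864 sites per kb, spans this short would seldom hold a site, so these counts of 0 carry little information. The nearest sites of ANK1 were 1009 nt before MIR486-1 and 4599 nt after it, and 7 of the 68 sites lay after it.

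The last 10% of each span was counted separately. In EPB41, 20 of 94 sites fell there, 21.3% (95% Wilson interval 14.2% to 30.6%, counting error only), and in ANK1 19 of 68, 27.9% (18.7% to 39.6%). These intervals treat sites as independent, although sites lay in groups, so they can be too narrow. The 20 sites of EPB41 lay in groups of 6, 2 and 12. The median of the 223 genes was 10.0%, with quartiles of 3.68% and 21.0%, and 54 of 222 others reached the share of EPB41 and 37 of 223 that of ANK1. The first 10% held 7 sites in EPB41 and 0 in ANK1. Of the 223 genes, 62.3% had no site in their first 10%.

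**Figure D3:**
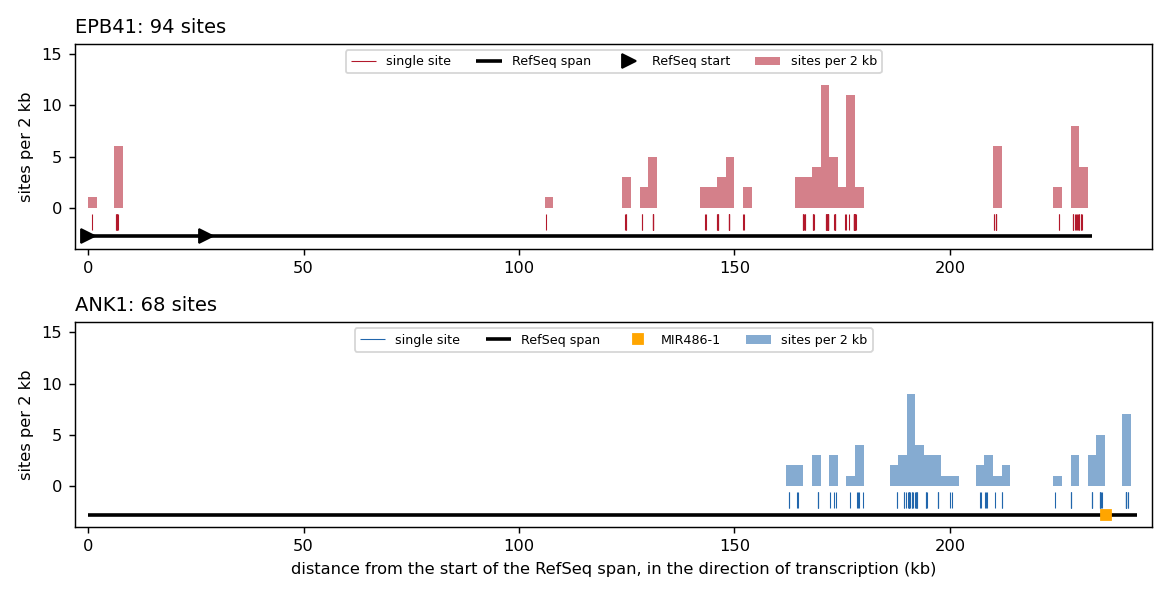
Sites along EPB41 (upper panel) and ANK1 (lower panel). The horizontal axis is the distance in kb from the start of the RefSeq span in the direction of transcription, the bars give the number of sites per 2 kb, and the short lines below give single sites. Triangles mark the 2 starts of EPB41 and the square marks MIR486-1. EPB41 has 7 sites ahead of a gap of 99256 nt, and ANK1 has 0 sites in its first 162631 nt.

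Neighbouring sites lay closer together in EPB41 than in ANK1, a difference that was not tested. The median distance between neighbours was 72.0 nt in EPB41 and 212 nt in ANK1, against a median of 124 nt over the 223 genes with at least 50 sites (quartiles 85.0 and 160 nt). Of 93 neighbouring pairs in EPB41, 43 were at most 60 nt apart, and of 67 in ANK1, 24 were. These shares were 46.2% and 35.8%, against a median of 41.2% over the 223 genes. Linking sites at this distance gave 51 clusters in EPB41, the largest with 7 sites, and 44 in ANK1, the largest with 5. Single sites made up 28 of these clusters in EPB41 and 30 in ANK1.

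Pairs of sites 25 to 45 nt apart outnumbered pairs 46 to 66 nt apart in both genes. There were 34 against 8 in EPB41, a ratio of 4.25, and 16 against 4 in ANK1, a ratio of 4.00. Over all protein-coding genes with a strand the counts were 18145 and 5054, a ratio of 3.59, with EPB41 among them. The values of both genes thus lay above the ratio over all genes, by an amount that was not tested. They rest on only 8 and 4 pairs at 46 to 66 nt, so a few pairs more would reverse this order. At longer distances EPB41 had 33 pairs 140 to 180 nt apart and 21 pairs 60 to 100 nt apart, while ANK1 had 3 and 5, and all genes together 10224 and 5900. The counts in ANK1 are small, and the difference between both genes was not tested. The 2 close sites of HBA1, 13 nt apart, are in neither of these spans.

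**Figure D4:**
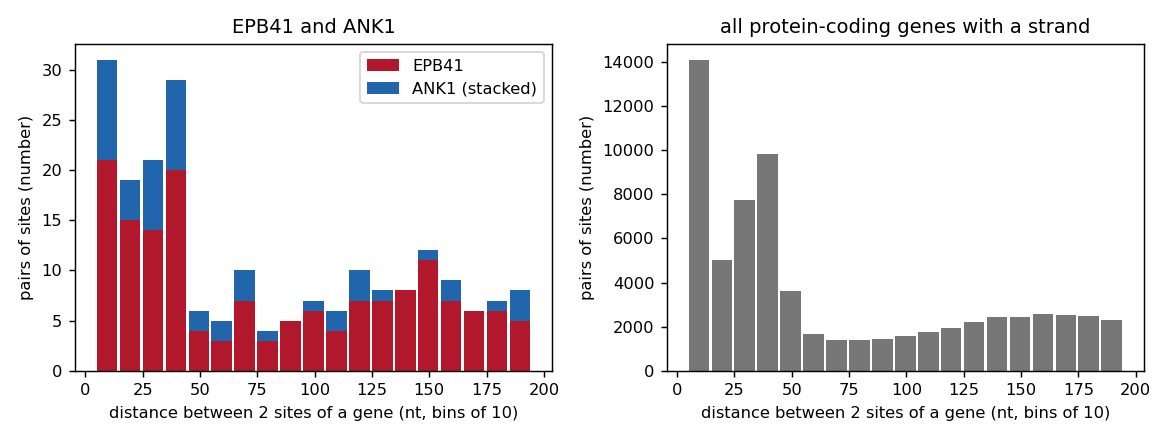
Distances between 2 sites of one gene, in bins of 10 nt, as numbers of pairs. The left panel stacks ANK1 on EPB41 and the right panel shows all protein-coding genes with a strand. In the bin from 35 to 44 nt there are 20 pairs in EPB41 and 9 in ANK1, and in the bin from 45 to 54 nt there are 4 and 2.

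Other genes of the red cell membrane were counted from a list of 35. Of these, 24 held at least 1 site, 13 at least 10 and 5 at least 30, with a median of 5 sites. Of the 15843 protein-coding genes, 6386 (40.3%) held at least 1, 2514 at least 10 and 676 at least 30, with a median of 0. The difference was not tested. The list was not limited to genes particular to red cells, so its share does not describe such genes alone. PIEZO1, a mechanically gated cation channel gene, held 62 sites. RHAG, for the Rh-associated glycoprotein, held 46, KEL, for the Kell blood group protein, held 44, MPP1, for a scaffold protein of the skeleton, held 36, and ADD1, for an adducin that caps actin filaments, held 34. EPB41 and ANK1 exceeded all 35, but they are also longer than each of them. Among the 5 genes just named, KEL had 2.07 sites per kb of span, RHAG 1.45, MPP1 1.34 and PIEZO1 0.887, all above the whole-span values of EPB41 and ANK1. ADD1 had 0.394, between both. The highest value of the 35 was that of ACTB, an actin gene named after its value was seen, with 4.63 per kb from 16 sites.

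Partners of the same complexes differed in number. SPTB, for the beta spectrin that binds ankyrin, held 8 sites in 134 kb. SLC4A1, for the anion exchanger to which ankyrin binds, and EPB42, for another protein of that complex, held 0. Of the other adducin genes ADD3 held 15 and ADD2 held 0. GYPB and GYPE, glycophorin genes that are close copies like the globins, held 5 and 1 sites, while GYPC, which is not a close copy of them, held 0. RHD and RHCE, another pair of close copies, held 0. Genes other than those ranked among the 5 highest are named here for their partnership with the members, after their values were seen.

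Of 8 paralogs of ANK1 and EPB41, 3 held a site, or 37.5%, near the 40.3% of all protein-coding genes with a strand. EPB41L2 held 9 sites, which equals the median of genes of like span to EPB41 with a site, EPB41L5 held 5 and ANK3 held 3 in 707 kb, and ANK2, EPB41L1, EPB41L3, EPB41L4A and EPB41L4B held 0. The span of EPB41L4A contained 3 sites on the strand opposite to the gene. No measure of RNA abundance was used, so a gene with few or 0 sites cannot be told apart from one whose RNA was scarce. The high counts of EPB41 and ANK1 likewise cannot be told apart from abundant RNA, since they were compared with genes of like span only. The number of introns was not matched in that comparison either, since exons were not given.

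**Figure D5:**
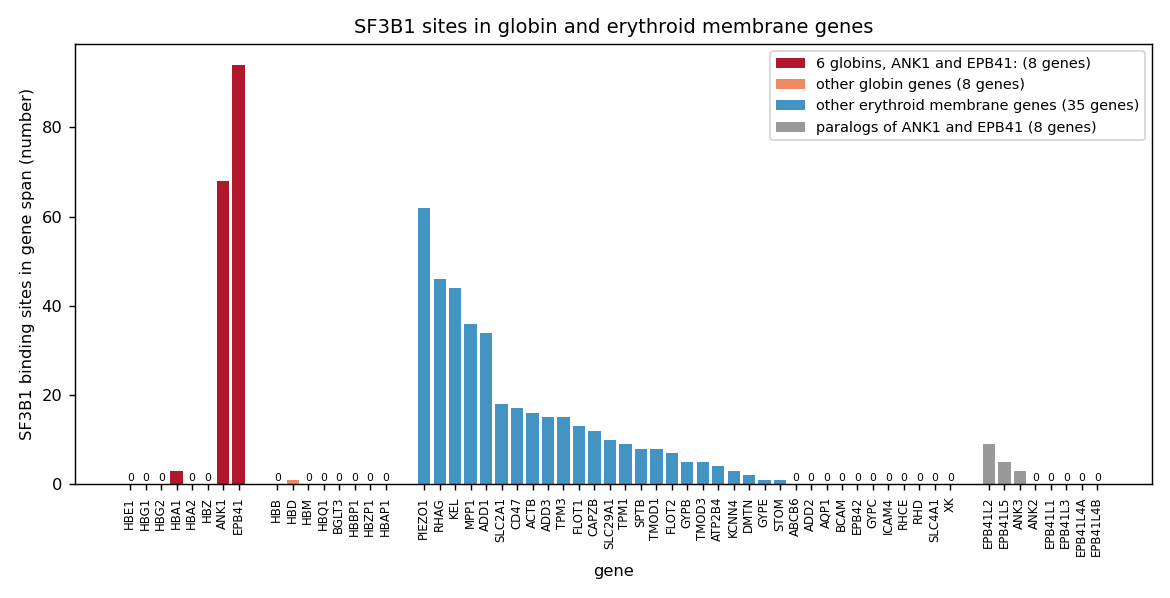
Number of SF3B1 sites in the span of each gene, for the 6 globins with ANK1 and EPB41 (red), 8 other globin genes (orange), 35 other erythroid membrane genes (blue) and 8 paralogs of ANK1 and EPB41 (grey). Genes with 0 sites are marked 0. EPB41 (94) and ANK1 (68) have the tallest bars, ahead of PIEZO1 with 62.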

How the data were processed

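One list of binding sites was deposited, which the labels attach to the 3 SF3B1 libraries from unmutated cells. Per the file headers, its sites are merged, 5 nt wide and reproducible in all replicates of either condition, so a part of the K700E libraries in it cannot be told from the list. Its deposited score was 0 in all rows and was not used. The submitters' processing notes name STAR 2.6.1b and 2.7.3a, UMI-tools 1.0.0, bedtools 2.27.1, FastQC 0.11.8, GRCh38.p10 and GRCh38.p12, without roles; the site caller is not given in the sources used here. Reads shared by near-identical gene copies can be lost in alignment.

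Gene spans came from RefSeq (GRCh38.p14). As listed, 97.0% of sites fell in protein-coding genes, and 59.8% after a shift by 100 kb. The promoter table gave the strand of 15843 of 20037 protein-coding genes, EPB41 among them. The strands of the other 7 members were taken from general knowledge, and other genes without a strand were counted on both. The gene table has no exons, so the planned shares of intronic sites and of sites near 3′ splice sites were not computed.

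Members and lists were chosen with earlier results of these data known. The named genes are the members, the 5 genes with the most sites in each list, the globin genes with 0 sites, and the 2 genes next above and below EPB41 and ANK1 in number among genes of like span; others are stated. Some genes of the lists are not reported here and were left out of their counts. The layout measures, groups and windows were chosen after the sites were seen. Counting was tested on simulated data and by direct search. Counts were made with pandas 2.3.3 and NumPy 2.4.6 and intervals with SciPy 1.17.1, in Python 3.11.15.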

Additional observations from a re-analysis of the deposited data

How the results depend on the processing

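Of 46 recalculations of 15 results, 44 stayed within 1.5 times the count or, for percentages, inside the 95% Wilson interval. For the 5 globins with 0 sites, merging touching sites or keeping 1 site per region number could not change the count. Those recalculations were fixed in advance and show nothing about robustness. Few sites touch, so merging left 86 of 94 in EPB41, 65 of 68 in ANK1 and all 3 in HBA1. These recalculations had little room to move either. Both recalculations that moved concern the background, which was 40.3%. On either strand 38.8% of all protein-coding genes held a site. Of those with a strand 34.5% held at least 2 sites, a stricter rule that can only lower the share. Sites in the 8 genes numbered 151 with 1 site per region number (a running number in the list shared by close sites), 154 with touching sites merged, and 165 on either strand or with any base inside the span. The alternatives for percentages were added after seeing the data. Ranking by score was not run, since the score is constant, and intron and splice site alternatives were not run without exons. Leaving out single replicates was not possible, since they are merged. No paired analysis was possible because values of single replicates are not part of the list. A count of 0 sites sets no limit on binding, as reads were not counted.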
